A study of Mus musculus with 9 samples.

Results

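Caloric restriction (CR) was compared with free feeding (AD, ad libitum) in 3 regions of the mouse brain, the amygdala, the hypothalamus and the prefrontal cortex. The comparison rests on 6 of the 9 arrays of the series, chosen by their diet labels, with 1 array for each diet in each region. All animals were wild-type (WT) C57BL/6J males aged 8 to 9 weeks and were taken on day 8 of the feeding schedule. AD mice ate freely and served as controls. CR mice received, over each cycle of 2 days, 0.5 times the food that mice on repeated fasting and refeeding (RFR) had eaten on their feeding day, and the RFR arrays are the other 3 of the series. Brains were perfused with cold saline under ether, cut into coronal sections of 1 mm, and RNA of 4 mice was pooled in equal amounts for each array. The labels describe 4 mice taken per diet, so the 3 arrays of a diet share their animals, and the regions are repeats of a difference between 1 pool and 1 other pool. In what follows the spread between regions therefore stands in for replicate error, and p-values computed from it are too small.

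Caloric restriction lowers energy intake without withholding a particular nutrient. Hypothalamic neurons read leptin, ghrelin and insulin and drive feeding through peptides such as NPY, orexin and melanin-concentrating hormone, while the amygdala and the prefrontal cortex shape fear, mood and motivated behaviour. Cells that sense scarcity are known to lower mTOR activity and the SREBP programme of sterol and fatty acid synthesis, and to adjust the chaperones that fold new proteins in the cytosol and in the endoplasmic reticulum (ER). The series was made to ask how restricted feeding, which altered anxiety-like and depressive-like behaviour, changes gene expression in these regions.

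Levels are log2 values of the processed signal divided by each array's 75th percentile, and differences as CR minus AD on that scale, where 1 is a 2-fold difference. Between 60.8% and 69.6% of the 43379 spots were well above background on the 6 arrays. The hypothalamus and prefrontal cortex arrays carried markers of their labelled regions. Hcrt, the orexin precursor of hypothalamic neurons, read 6.92 (AD) and 7.19 (CR) in hypothalamus and at most -1.67 in the other regions. Neurod2, a transcription factor of cortical excitatory neurons, read 4.24 and 3.79 in prefrontal cortex and -2.79 and -3.33 in hypothalamus. The labelled amygdala arrays also held Neurod2 at 3.04 and 2.05, and no marker of the amygdala itself is given here. The AD arrays were hybridised on 1 slide, the CR hypothalamus and prefrontal cortex arrays on another and the CR amygdala array on its own, so the slide and the diet of an array cannot be told apart in any region. After region and diet were fitted, the AD and CR amygdala arrays had the largest residuals of the 9 arrays (root mean square 0.21 and 0.18 log2, against 0.10 to 0.13 on the other 7).

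The same diet difference looked alike in hypothalamus and prefrontal cortex and unlike in amygdala. Across 11422 genes well above background on all 6 arrays, the differences in hypothalamus and prefrontal cortex had a Pearson r of 0.66 (Spearman 0.74), whereas amygdala differences had an r of -0.06 with hypothalamus and -0.11 with prefrontal cortex. These are descriptions across genes, which are not independent, and the hypothalamus and prefrontal cortex pairs share their slides. Of the 11422 genes, 372 (3.26%) were at least 0.5 log2 higher on the CR array in both hypothalamus and prefrontal cortex, 330 (2.89%) were lower in both, and 34 (0.298%) went in opposite directions. For amygdala and hypothalamus the same counts were 67 (0.587%), 102 (0.893%) and 192 (1.68%), and for amygdala and prefrontal cortex 38 (0.333%), 80 (0.7%) and 201 (1.76%). Pairs with the amygdala thus held more genes of opposite than of either shared direction.

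**Figure D1:**
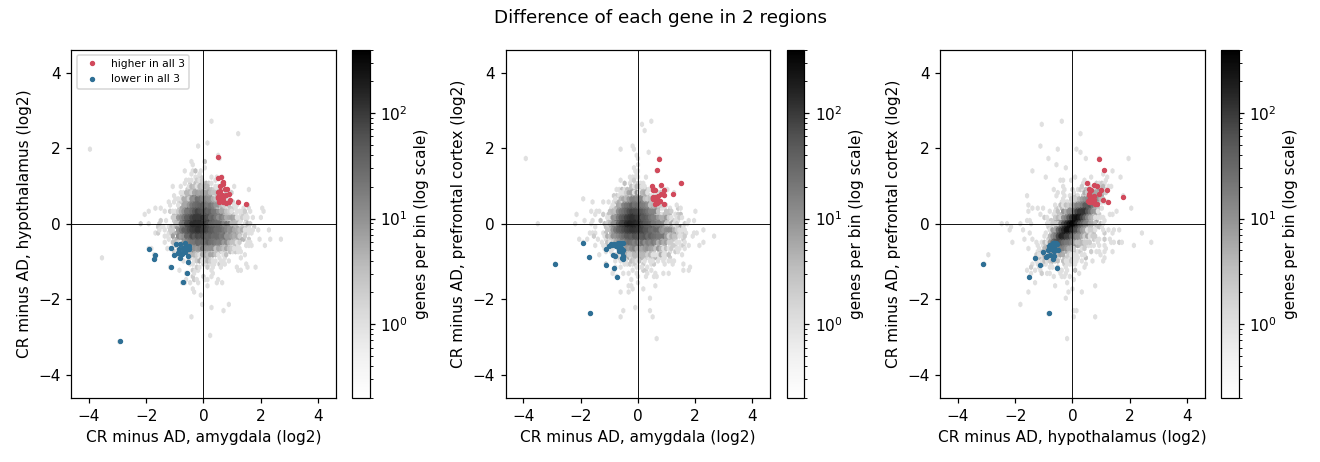
Difference between the CR and the AD array for each gene in each pair of regions (both axes in log2, CR minus AD), with grey bins shaded by the number of genes and points for the genes at least 0.5 log2 higher (28, red) or lower (33, blue) in all 3 regions. The cloud is stretched along the diagonal for hypothalamus against prefrontal cortex (r = 0.66) and round for both pairs with the amygdala.

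No gene passed an adjusted p of 0.05 for CR minus AD in limma fitted over the 3 regions (0 of 12616, 0%), while 2085 genes (16.5%) had an unadjusted p under 0.05, 756 of them higher on the CR arrays (5.99%) and 1329 lower (10.5%). Without the amygdala arrays the same model called 1218 genes, 653 higher and 565 lower. In that fit both CR arrays lie on 1 slide and both AD arrays on another. With slide as a fixed term, limma called 5 genes. That fit left 2 residual degrees of freedom. Its slide term takes up the CR amygdala array, which is alone on its slide, so slide-fixed differences hold no CR amygdala value. The step between the remaining slides is set in it by the RFR arrays. Every slide-fixed value below shares these limits. Genes are therefore described by size and direction in each region, and no gene named here passed the test.

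A set of 61 genes (0.534% of 11422) differed by at least 0.5 log2, or 1.41-fold, in 1 direction in every region. Of these, 28 (0.245%) were higher on the CR arrays and 33 (0.289%) lower. Mean fold differences were 1.53 to 2.19 for the higher genes and 1.45 to 5.15 for the lower ones. All 61 had an unadjusted limma p under 0.05, which the rule that chose them favours, and adjusted p-values of 0.169 to 0.290. The levels of the diets did not overlap across regions for 19 of the 28 and 20 of the 33, against 2.62% and 5.6% of all genes. The rule that chose the set favours this too, so it is a description and no further support. At the threshold, Npb (smallest difference 0.502) and Prkrip1 (0.5002) lay just inside, and Faim2 (0.496) and Gabra2 (0.498) just outside. A gene is represented here by its brightest probe, and 12 of the 61 had another probe well above background on all 6 arrays. For 3 of these 12 (25%) every such probe had the same direction in all regions, close to the 22.8% among all 1374 genes with 1 direction and such a probe. Leaving out a region lengthens the set by construction, to at most 372 and 330 genes without the amygdala. With normexp background correction 9 genes in place of 28 were higher, and 11 in place of 33 were lower in the authors' deposited ratio table.

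Ranked by their smallest difference over the regions, Khsrp came first among the lower and Snrpe among the higher genes. Khsrp (NM_010613), which encodes an RNA-binding protein that promotes decay of AU-rich mRNAs, read 4.15, 4.52 and 4.71 on the AD arrays of amygdala, hypothalamus and prefrontal cortex and 3.02, 3.38 and 3.62 on the CR arrays. Every CR level lay below every AD level, and the 3 differences (-1.13, -1.14 and -1.09) were nearly equal. The mean difference in limma was -1.12 ± 0.12 (SE; adjusted p = 0.169), a 2.17-fold lower signal; with its other probe, which was not well above background on all arrays, averaged in, it was -0.67. Snrpe (NM_009227), a core protein of spliceosomal snRNPs, read 0.53, 0.40 and 0.10 on AD and 1.34, 1.31 and 0.90 on CR arrays in the same order of regions. The RFR arrays read 0.40, 0.43 and 0.19, so the CR arrays stood above both other diets in each region; the limma mean was 0.84 ± 0.10 (SE; adjusted p = 0.169).

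Snrpn (NM_013670), a neuronal snRNP protein, and Snurf (NM_033174), named after its values were seen, are made from 1 imprinted bicistronic transcript. Snrpn read 3.62, 3.70 and 4.09 on AD and 4.24, 4.30 and 4.74 on CR arrays in amygdala, hypothalamus and prefrontal cortex. A further Snrpn probe differed by 0.73, 0.63 and 0.73. Snurf read 2.22, 2.52 and 2.84 on AD and 3.13, 3.08 and 3.60 on CR arrays. These 3 probes of 1 locus were thus all higher on every CR array; since they can read the same transcript, they are not independent genes. With slide as a fixed term the mean difference was 0.38 for Snrpn and 0.37 for Snurf, against 0.62 and 0.74 without it. Tpr, a nucleoporin of the nuclear basket, read 3.52, 3.09 and 2.91 on AD and 2.85, 2.44 and 2.17 on CR arrays, but its other probe differed by 0.03, 0.45 and 0.45 in the opposite direction. Fam98b, a subunit of the tRNA ligase complex, was likewise 0.66, 0.74 and 0.68 lower by its brightest probe and 0.18, 1.06 and 0.95 higher by another.

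The shared gene with the largest mean difference was Shroom3 (NM_015756), an actin-binding regulator of cell shape. It read -2.11, -1.71 and -3.52 on the AD arrays of amygdala, hypothalamus and prefrontal cortex and -5.01, -4.83 and -4.59 on the CR arrays. The RFR arrays read -4.57, -4.16 and -4.55, close to CR, so the AD arrays were the ones that stood apart. The limma mean of CR minus AD was -2.36 ± 0.37 (SE; adjusted p = 0.169), and -1.56 with normexp or with slide as a fixed term. Chil3, a chitinase-like lectin of myeloid cells, read -3.03, -3.67 and -1.32 on AD and -4.72, -4.49 and -3.69 on CR arrays, with RFR at -4.63, -4.62 and -3.53. It too was high on the AD arrays rather than low on the CR arrays alone. In prefrontal cortex all 5 measured genes of the marrow neutrophil and bone list, Chil3 itself among them, were lower on the CR array. The list median there was -1.19 relative to all genes, whereas it was -0.22 in amygdala and 0.12 in hypothalamus. The part of such cells in the Chil3 values was not tested.

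The other shared lower genes with the largest differences had varied functions. Trim54, a muscle-type microtubule-associated RING protein, read 0.22, -3.12 and -1.63 on AD and -1.49, -4.05 and -2.50 on CR arrays in amygdala, hypothalamus and prefrontal cortex. Pdxk, the kinase that makes pyridoxal phosphate from vitamin B6, read 3.63, 4.21 and 3.70 on AD and 2.82, 3.31 and 2.85 on CR arrays. Its other probe was also lower in each region, by 0.22, 0.69 and 0.43 on the log2 scale. Vash1, a tubulin carboxypeptidase, was 0.87, 0.77 and 0.83 lower, and Efnb1, a ligand of Eph receptors, 1.12, 0.63 and 0.67 lower. Ugt2b34, a glucuronosyltransferase, was 0.72, 1.53 and 1.41 lower. Tbpl1, a TATA-binding protein relative, and Mfsd10, a membrane transporter, were 0.60 to 0.79 lower in each region. Of the 2 other probes of Tbpl1 1 shared that direction, and the mean over all its probes was -0.30 against -0.68. Slide as a fixed term moved the mean difference by over 1.5 times for 5 of the 12 lower genes ranked first, to -0.31 for Trim54 (from -1.17), -0.33 for Efnb1 (from -0.81), -0.44 for Tbpl1, -1.56 for Shroom3 and, the other way, -2.01 for Ugt2b34 (from -1.22).

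Genes of hormones and neuropeptides were also in the set; those of this paragraph are named for their roles after their values were seen. Esr1, the oestrogen receptor alpha, read -1.82, -1.13 and -3.54 on AD and -2.65, -1.68 and -4.72 on CR arrays in amygdala, hypothalamus and prefrontal cortex. Kiss1, the kisspeptin precursor that drives reproductive hormone release, read -2.80, -1.23 and -0.39 on AD and -3.35, -2.24 and -1.13 on CR arrays. The CR array was the lower of each pair for both genes, although levels overlapped across regions. Pmch, the precursor of the orexigenic melanin-concentrating hormone, read 5.74 on the AD and 6.25 on the CR hypothalamus array, where its neurons lie, and was 1.50 and 1.09 higher at far lower levels in amygdala (-3.43 and -1.93) and prefrontal cortex (-4.78 and -3.69). Npb, neuropeptide B, was 0.50, 0.85 and 0.99 higher. With slide as a fixed term the mean difference was -0.49 for Esr1 (from -0.85), 0.31 for Pmch (from 1.04) and 1.57 for Npb (from 0.78). The limma means of these 4 genes had adjusted p-values of 0.180 for Esr1, 0.205 for Kiss1, 0.248 for Pmch and 0.205 for Npb.

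Among the 28 higher genes were Decr1 and Ehhadh, the latter named after its values were seen; the list of fatty acid oxidation genes described further on held as many members higher as lower in all regions. Decr1, the mitochondrial dienoyl-CoA reductase needed to oxidise unsaturated fatty acids, read -3.91, -3.92 and -4.10 on AD and -3.21, -3.18 and -3.36 on CR arrays. Ehhadh, the peroxisomal bifunctional enzyme, read -3.30, -2.69 and -3.16 on AD and -2.60, -2.13 and -2.59 on CR arrays. Both sets of CR levels were higher in every region, and for Decr1 all CR levels exceeded all AD levels. With normexp the mean difference of Decr1 was 0.14 in place of 0.73. Kcnk2, a background potassium channel, was 1.22, 0.58 and 0.79 higher, with a limma mean of 0.87 ± 0.14 (SE; adjusted p = 0.169), or 0.54 with normexp.

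The remaining higher genes ranked by smallest difference were mostly dim. Relt, a TNF receptor family member, was 0.80, 0.76 and 1.02 higher in amygdala, hypothalamus and prefrontal cortex. Rab37, a secretory GTPase, was 0.92, 0.64 and 0.89 higher, and Atp11a, a phospholipid flippase, 0.67, 1.06 and 0.62 higher. Zfp345, Zfp709 and Zfp759, zinc finger genes of multigene families whose probes may not be specific, were 0.58 to 1.72 higher, and Spem2 and Dhrs11 were 0.63 to 1.42 higher. Among the 12 higher genes ranked first, Snrpe and Snrpn were the ones with positive levels on every CR array. With normexp the mean difference of 9 of these 12 moved by over 1.5 times, in each case towards 0: besides Decr1 and Kcnk2 it became 0.43 for Atp11a, 0.34 for Zfp345 and 0.17 to 0.29 for Dhrs11, Rab37, Spem2, Zfp709 and Zfp759. Slide as a fixed term brought Zfp345 to 0.38 (from 1.13) and Relt to 0.57 (from 0.86), and the mean of all probes brought Rab37 to 0.36 (from 0.82).

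**Figure D2:**
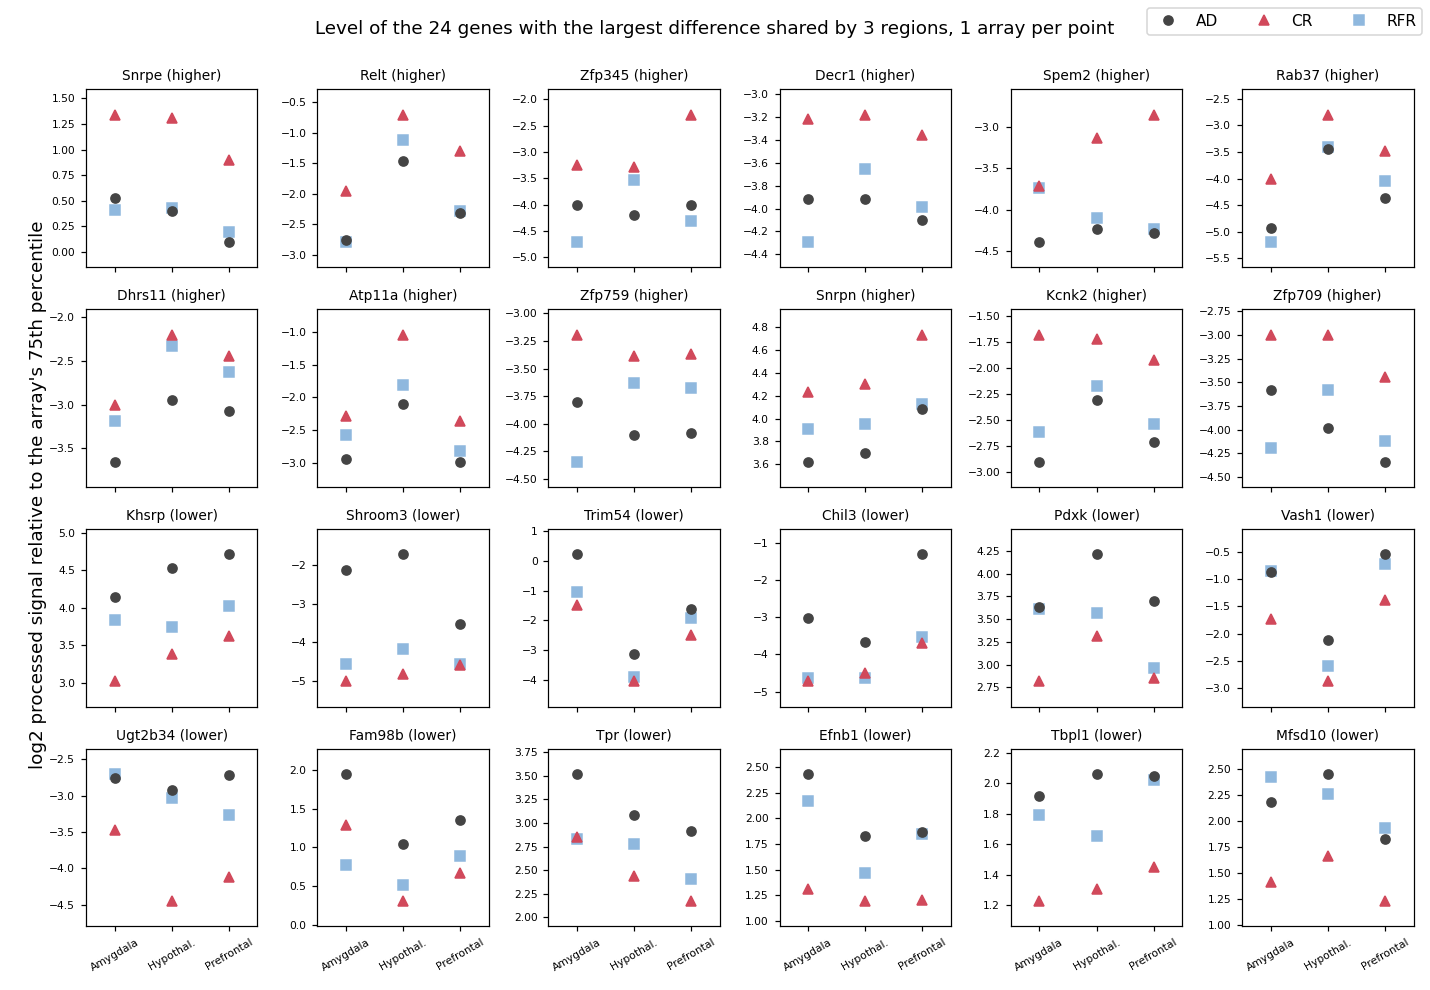
Level (log2 processed signal relative to the array's 75th percentile) of the 24 genes ranked first by their smallest difference over the regions, 12 lower and 12 higher on the CR arrays, by region, with 1 point per array for AD, CR and RFR and no error bar because each point is 1 array. In every panel the CR point lies on the same side of the AD point in all 3 regions, while RFR lies near CR for Shroom3 and Chil3 and near AD for Snrpe and Mfsd10.

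The RFR arrays place these differences. For the 28 higher genes the median CR minus AD was 0.66, 0.74 and 0.71 in amygdala, hypothalamus and prefrontal cortex, the median RFR minus AD was -0.14, 0.26 and 0.12, and the median CR minus RFR was 0.78, 0.49 and 0.56. For the 33 lower genes the median CR minus AD was -0.71, -0.68 and -0.67, the median RFR minus AD was -0.25, -0.42 and -0.28, and the median CR minus RFR was -0.51, -0.27 and -0.42. The 3 differences share arrays and are given side by side only. Over the same 11422 genes every one of these medians lay between -0.11 and 0.04. The lowest adjusted p of the 61 genes in limma for CR minus RFR was 0.0605; that comparison called 2 genes of 12616 (0.0159%), neither of them among the 61, and 1863 (14.8%) had an unadjusted p under 0.05, 6.6% higher and 8.16% lower on the CR arrays.

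Functional gene groups were read next. Levels and differences of their single genes are given on the same scale as above. Counts and medians of a list were instead taken relative to the median of all genes in each region, since those medians were -0.11, -0.03 and -0.02. A gene printed as slightly lower in amygdala can thus count as higher there. On that scale 18.6% of all genes were lower and 18.8% higher on the CR array in all 3 regions. None of the 41 gene lists examined (25 functional, 16 of cell types) held a gene called by limma, and the lists were chosen with earlier results of these data known. The list with the largest share of members lower in every region among those with over 5 measured members was that of ER chaperones.

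ER chaperones fold proteins that enter the secretory pathway, and many of their promoters carry the ER stress response element, where NF-Y binds the CCAAT end and ATF6 or XBP1 the CCACG end. Of 18 measured members, 10 (55.6%) were lower on the CR array in all regions and 2 (11.1%) higher; the list medians were -0.20, -0.10 and -0.05 in amygdala, hypothalamus and prefrontal cortex. For 5 of the 18 the unadjusted limma p was under 0.05, all lower (27.8%, against 10.5% of all genes). With normexp background correction the count lower in all regions was 5 of 18 (27.8%, against 19.8% of all genes), and without the amygdala it was 11 of 18 (61.1%, against 40.2%). RefSeq promoters (build GRCm38.p6, from 250 bases before to 50 after the start) were at hand for 16 members. For 7 of them (43.8%) a promoter held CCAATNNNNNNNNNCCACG on either strand, against 39 of 32851 single promoters (0.119%). Members were counted as genes with a match in any of their promoters, so the shares are of unlike units. The promoters of 4 members follow, shown because carriers of the element went in both directions, with the element in capitals where it lies on the printed strand or as its reverse complement. Creld2 lies at chr15:88819396-88819695 (plus strand), Dnajc3 at chr14:118937682-118937981 (plus strand), Canx at chr11:50325624-50325923 (minus strand) and Hspa5 at chr2:34771840-34772139 (plus strand).
Creld2: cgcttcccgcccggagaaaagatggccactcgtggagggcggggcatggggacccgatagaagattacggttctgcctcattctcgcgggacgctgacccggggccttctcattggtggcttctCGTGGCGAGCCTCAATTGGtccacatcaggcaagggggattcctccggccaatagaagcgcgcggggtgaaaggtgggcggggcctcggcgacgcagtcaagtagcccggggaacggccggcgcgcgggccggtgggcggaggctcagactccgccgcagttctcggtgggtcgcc
Dnajc3: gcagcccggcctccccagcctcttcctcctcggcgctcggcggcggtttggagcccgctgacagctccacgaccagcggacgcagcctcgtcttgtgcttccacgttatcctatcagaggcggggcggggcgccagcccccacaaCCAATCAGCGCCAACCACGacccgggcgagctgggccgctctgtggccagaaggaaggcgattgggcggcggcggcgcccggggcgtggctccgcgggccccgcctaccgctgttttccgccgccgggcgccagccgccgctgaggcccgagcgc
Canx: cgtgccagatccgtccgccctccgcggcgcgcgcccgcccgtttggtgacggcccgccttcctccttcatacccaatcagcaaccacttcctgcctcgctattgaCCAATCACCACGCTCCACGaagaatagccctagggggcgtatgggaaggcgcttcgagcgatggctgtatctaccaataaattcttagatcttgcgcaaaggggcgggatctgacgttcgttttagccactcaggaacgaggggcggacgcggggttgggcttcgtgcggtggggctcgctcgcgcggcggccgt
Hspa5: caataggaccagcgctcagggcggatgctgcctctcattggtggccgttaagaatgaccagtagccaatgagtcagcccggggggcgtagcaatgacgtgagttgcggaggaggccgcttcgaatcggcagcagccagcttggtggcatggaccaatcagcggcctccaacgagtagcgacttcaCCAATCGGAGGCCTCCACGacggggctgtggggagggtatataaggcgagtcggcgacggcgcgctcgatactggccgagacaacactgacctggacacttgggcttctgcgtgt

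Creld2, an ER chaperone induced by unfolded proteins, read 3.33, 3.71 and 3.08 on the AD and 2.83, 3.31 and 2.81 on the CR arrays of amygdala, hypothalamus and prefrontal cortex. Sdf2l1, a stress-induced member of ER chaperone complexes, read 0.02, 1.29 and 0.73 on AD and -0.29, 0.43 and 0.24 on CR arrays. The CR array was lower in every pair, and the limma means were -0.39 ± 0.10 for Creld2 and -0.55 ± 0.14 for Sdf2l1 (SE; adjusted p = 0.205 for both), the first being -0.25 with slide as a fixed term. The disulfide isomerases Pdia3 and Pdia4 were 0.25 to 0.55 lower in each region. Their slide-fixed mean differences were -0.01 (from -0.33) and -0.22 (from -0.42). Hspa5, which encodes BiP itself, went the other way, with 4.05, 4.44 and 3.91 on AD and 4.09, 4.96 and 4.25 on CR arrays. Calr, a lectin chaperone whose promoter also held the element, was 0.30 lower in amygdala and 0.67 and 0.54 higher in hypothalamus and prefrontal cortex. Dnajc3 and Canx, named for their promoters, were 0.32, 0.21 and 0.19 and 0.16, 0.18 and 0.10 lower. Other probes well above background existed for Dnajc3 and Canx alone among the 10 lower members, and for neither gene did they all share the direction in every region. The 7 genes with the element in a promoter were thus lower in all regions (Creld2, Dnajc3, Canx), higher in all (Hspa5) or mixed (Calr, Hsp90b1, Pdia6).

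Heat shock proteins, the folding machinery of the cytosol and mitochondria, held fewer genes lower in every region. Of 18 measured members, 7 (38.9%) were lower and 4 (22.2%) higher on the CR array in all regions, with list medians of -0.15, -0.11 and -0.05. The count lower was 4 of 18 (22.2%) when all probes of a gene were averaged, against 17.0% of all genes. Hsph1, the HSP110 co-chaperone, read 5.54, 5.88 and 5.66 on AD and 4.96, 5.27 and 5.27 on CR arrays. Hsp90aa1, the inducible HSP90, read 7.02, 7.24 and 6.96 on AD and 6.45, 6.70 and 6.74 on CR arrays. For both genes every CR level was below every AD level; the limma mean was -0.53 ± 0.10 for Hsph1 (SE; adjusted p = 0.188) and -0.44 ± 0.12 for Hsp90aa1 (SE; adjusted p = 0.212), and with slide as a fixed term -0.35 and -0.19. Cryab, a small heat shock protein abundant in glia, was 0.60, 0.28 and 0.08 lower. Hspa4 and Bag3, both nucleotide exchange factors for HSP70, were 0.45, 0.55 and 0.45 and 0.24, 0.37 and 0.23 higher.

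Sterol synthesis runs from acetyl-CoA through mevalonate and squalene to cholesterol, which the brain makes itself, largely for myelin. Of 21 measured genes of the pathway and its regulators, 10 (47.6%) were lower on the CR array in all regions and 1 (4.76%) higher. Over all genes these shares were 18.6% and 18.8%. The list medians were -0.12, -0.21 and -0.20 in amygdala, hypothalamus and prefrontal cortex. For 9 of the 22 fitted (40.9%) the unadjusted limma p was under 0.05, all lower, against 10.5% of all genes. Without the amygdala 16 of 21 (76.2%) were lower, against 40.2% of all genes, and the other settings tried left the count at 9 to 11. Every one of the 16 members with a RefSeq promoter held CCAAT on either strand in a promoter, against 37.4% of all single promoters. So did 15 of the 16 ER chaperone genes (93.8%), so CCAAT did not set the lists apart. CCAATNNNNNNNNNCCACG was in none of the sterol promoters. The SREBP-type element TCACNCCAC was in 1 of 16 genes in either list (6.25%), against 1.24% of all single promoters. Genes are here too set beside single promoters, which are unlike units. The promoters of the pair with the lowest limma p, Hsd17b7 at chr1:169969156-169969455 (minus strand) and Mvd at chr8:122443373-122443672 (minus strand), are printed with CCAAT or its reverse complement in capitals.
Hsd17b7: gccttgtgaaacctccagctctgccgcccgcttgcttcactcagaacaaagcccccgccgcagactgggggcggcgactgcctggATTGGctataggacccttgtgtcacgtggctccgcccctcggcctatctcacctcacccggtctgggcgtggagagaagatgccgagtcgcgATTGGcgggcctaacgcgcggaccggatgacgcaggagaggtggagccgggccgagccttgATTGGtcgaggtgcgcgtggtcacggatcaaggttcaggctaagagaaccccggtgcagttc
Mvd: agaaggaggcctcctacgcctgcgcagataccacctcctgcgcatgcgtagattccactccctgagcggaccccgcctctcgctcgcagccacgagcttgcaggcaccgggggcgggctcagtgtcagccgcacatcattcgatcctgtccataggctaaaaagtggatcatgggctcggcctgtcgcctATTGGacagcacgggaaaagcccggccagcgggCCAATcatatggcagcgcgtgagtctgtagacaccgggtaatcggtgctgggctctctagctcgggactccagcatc

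Hsd17b7, the sterol 3-ketoreductase, read 0.42, -0.14 and 0.84 on the AD arrays and -0.24, -0.57 and 0.18 on the CR arrays of amygdala, hypothalamus and prefrontal cortex. Mvd, the mevalonate diphosphate decarboxylase, read 0.93, 1.18 and 1.18 on AD and 0.61, 0.25 and 0.33 on CR arrays. The CR arrays were lower in each region, and for Mvd no CR level reached an AD level. The limma means were -0.59 ± 0.10 for Hsd17b7 (SE; adjusted p = 0.169) and -0.70 ± 0.14 for Mvd (SE; adjusted p = 0.202), the latter -1.12 with slide as a fixed term. Fdps, the farnesyl diphosphate synthase, was 0.27, 0.33 and 0.37 lower, and Dhcr7, which completes cholesterol, 0.76, 0.16 and 0.25 lower. Their slide-fixed mean differences were -0.51 (from -0.32) and -0.16 (from -0.39). Srebf2, the pathway's transcription factor, was 0.80 higher in amygdala and 0.03 and 0.06 higher in hypothalamus and prefrontal cortex. Nsdhl, a sterol dehydrogenase, was 0.14 lower in amygdala and 0.46 and 0.31 higher in the other regions.

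Some steps of the pathway split by region and were named after their values were seen. Fdft1, the squalene synthase, read 1.82 on the AD and 2.77 on the CR array in amygdala, 2.72 and 2.13 in hypothalamus, and 2.35 and 1.89 in prefrontal cortex. It differed by 0.95, -0.59 and -0.46 and Lss, the lanosterol synthase, by 0.89, -0.42 and -0.74. These genes were higher on the CR array in amygdala and lower in both other regions. Of the 10 genes lower everywhere, 5 had further probes well above background, and for 2 of them (Pmvk and Hsd17b7) those probes were lower in all regions too. Among fatty acid synthesis genes 2 of 14 were lower and 3 higher in all regions. Srebf1, the SREBP of fatty acid synthesis, was 0.48, 0.39 and 0.11 lower, with a slide-fixed mean difference of -0.04 (from -0.33).

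Oligodendrocytes, the main users of newly made cholesterol, were checked beside these results. The summed signal of 15 such genes is given in units of the array's 75th percentile. In amygdala, hypothalamus and prefrontal cortex it was 129, 215 and 83.3 on the AD and 155, 230 and 109 on the CR arrays. Relative to all genes, 6 of 15 (40%) were higher in all regions and 0 lower, against 18.8% and 18.6% of all genes. The list medians were 0.35, -0.07 and 0.27, and in hypothalamus 9 of the 15 were lower and 6 higher. All 15 were well above background on every array, Mbp being 0.57, -0.13 and 0.28 different. Their part in the sterol values was not tested, and in RNA of whole tissue fewer cells of a type and less RNA per cell cannot be told apart.

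**Figure D3:**
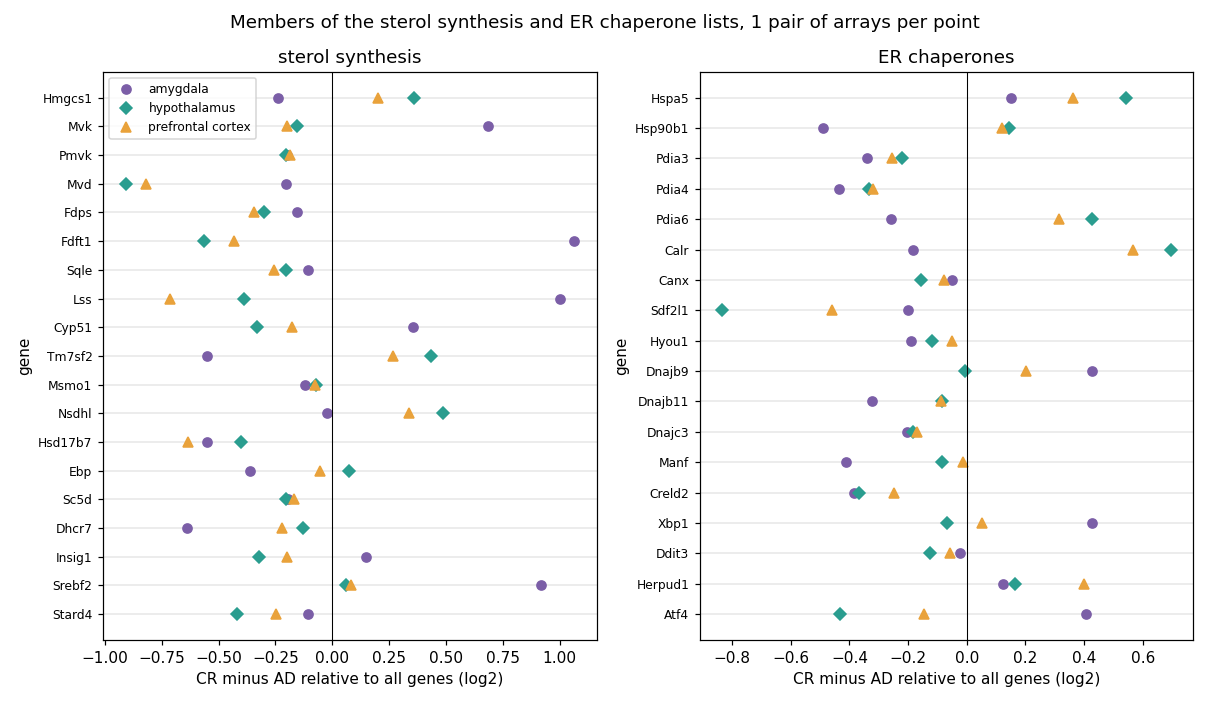
Difference between the CR and the AD array (log2, relative to the median of all genes in the region) for measured sterol synthesis genes (most are drawn) and ER chaperones, with 1 point per region and no error bar because each point is 1 pair of arrays. Among ER chaperones 10 of 18 genes have all 3 points below 0, as do Mvd and Hsd17b7 of sterol synthesis, with Fdft1 and Lss split between amygdala and the other regions.

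Peptides and receptors that control feeding held genes of either direction. Relative to all genes, 2 of 4 measured orexigenic peptides were higher and 1 lower on the CR array in all regions, 1 of 4 anorexigenic peptides was higher and 1 lower, and 2 of 7 receptors of hunger and satiety signals were higher and 0 lower. Pomc, the precursor of the satiety peptide alpha-MSH, read 0.29, 4.88 and -0.18 on the AD and -0.24, 3.92 and -0.44 on the CR arrays of amygdala, hypothalamus and prefrontal cortex. Gal, galanin, was 0.51 and 0.52 lower in amygdala and hypothalamus and 0.06 lower in prefrontal cortex. Npy was 0.50 lower in amygdala and 0.35 higher in hypothalamus, and Hcrt was 0.47, 0.27 and 0.35 higher. Pomc also marks the pituitary. The pituitary list had a summed signal of 31.7 on the AD and 17.5 on the CR hypothalamus array. That list holds Pomc itself, so its sum is not separate from the Pomc value. The part of pituitary tissue in the Pomc value was not tested. Cnr1, the cannabinoid receptor, was 0.30 higher in amygdala and 1.06 and 1.32 lower in hypothalamus and prefrontal cortex, and Mc3r, a melanocortin receptor, was 0.24 higher and 0.96 and 0.68 lower. Npy1r and Npy5r, receptors for NPY, were 0.04 and 0.10 lower in amygdala and 0.32 to 0.84 higher elsewhere.

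Genes that glucocorticoids induce did not share a direction. Of 18, 5 (27.8%) were higher and 3 (16.7%) lower on the CR array in all regions. Tsc22d3 (GILZ), a direct target of the glucocorticoid receptor, read 2.15, 2.73 and 2.21 on AD and 1.68, 2.35 and 1.89 on CR arrays, and Nfkbia, the NF-kappaB inhibitor, was 0.67, 0.34 and 0.19 lower. The receptor Nr3c1 was 0.49, 0.32 and 0.05 lower. Fitted with slide, the mean difference was 0.14 for Nfkbia (from -0.40), -0.34 for Tsc22d3 (from -0.39) and -0.25 for Nr3c1 (from -0.29). Mt1, a metallothionein, was 0.19 lower in amygdala and 0.93 and 0.59 higher in the other regions, and Klf9, a target of both glucocorticoid and thyroid hormone receptors, was 0.07 higher and 0.86 and 0.57 lower. For Tsc22d3 the limma mean was -0.39 ± 0.10 (SE; adjusted p = 0.205), with a further probe that did not share the direction.

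Immediate early genes, transcribed within minutes of neuronal activity, also divided. Npas4, an activity-dependent transcription factor, read -2.02, -2.75 and -0.43 on AD and -1.53, -1.92 and 0.23 on CR arrays of amygdala, hypothalamus and prefrontal cortex. It was higher on each CR array, while Arc, Nr4a1, Nr4a2 and Dusp6 were lower on each. Arc was 0.19, 0.31 and 0.65 lower, Nr4a2 1.07, 0.34 and 0.36 lower and Dusp6, a phosphatase induced by ERK, 0.92, 0.33 and 0.50 lower. Relative to all genes 3 of 17 members were higher and 4 lower in all regions, with medians of -0.32, 0.19 and -0.03. Bdnf, a neurotrophin released with activity, was 1.06, 0.08 and 0.37 lower, and its receptor Ntrk2 was 0.09, 0.43 and 0.35 higher. The slide-fixed mean difference was reversed for Bdnf (0.18, from -0.50) and Dusp6 (0.11, from -0.58) and -0.07 for Arc (from -0.38). It was 0.57 for Npas4 (from 0.66), -0.56 for Nr4a2 (from -0.59) and 0.65 for Ntrk2 (from 0.29).

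Clock genes as a group did not stand out, although some output genes were higher in every region. Nr1d1 and Nr1d2, the REV-ERB repressors, were 0.35, 0.31 and 0.11 and 0.15, 0.41 and 0.54 higher on the CR arrays. Tef, a PAR bZIP factor, was 0.36, 0.31 and 0.21 higher. Slide-fixed mean differences were 0.05 for Nr1d1 (from 0.26), 0.54 for Nr1d2 (from 0.37) and 0.16 for Tef (from 0.29). Per1 read 2.20, 2.17 and 2.94 on AD and 2.04, 1.59 and 2.12 on CR arrays, with a limma mean of -0.52 ± 0.14 (SE; adjusted p = 0.212). Of 18 measured clock genes 4 (22.2%) were higher and 2 (11.1%) lower in all regions, near the shares over all genes. Each diet had 1 array per region, so levels and not rhythms were measured.

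In energy metabolism, single genes differed in every region within lists that held both directions. Of 19 genes of fatty acid oxidation and ketone use 5 were higher and 5 lower in all regions. Cpt1a, the gate of mitochondrial fatty acid entry, read -0.22, 0.12 and -0.02 on AD and 0.07, 0.49 and 0.21 on CR arrays. Ppargc1a, the coactivator of mitochondrial genes, read 2.35, 1.80 and 2.62 on AD and 2.08, 1.11 and 2.17 on CR arrays, and Oxct1, which activates ketone bodies, was 0.22, 0.38 and 0.37 lower. Of 22 glycolysis genes 6 were higher and 3 lower; Eno1 (enolase) was 0.75, 0.31 and 0.28 higher and Pfkm, a phosphofructokinase, 0.33, 0.34 and 0.29 lower. Of 23 genes of the respiratory chain and ATP synthase 4 were higher and 6 lower, with Ndufa9 of complex I 0.78, 0.38 and 0.18 lower. The slide-fixed mean difference was -0.03 for Eno1 (from 0.45) and -0.03 for Ndufa9 (from -0.45). It kept its direction for Cpt1a (0.27), Ppargc1a (-0.86), Oxct1 (-0.34) and Pfkm (-0.37).

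Nutrient-sensing genes were similarly mixed. Sesn1, a stress-induced brake on mTORC1, read 3.39, 3.42 and 3.56 on AD and 2.61, 2.99 and 3.30 on CR arrays, and Eif4ebp2, a translational repressor under mTOR, was 0.06, 0.95 and 0.79 lower. Sqstm1, the autophagy receptor p62, read 6.74, 7.19 and 6.73 on AD and 6.28, 6.66 and 6.42 on CR arrays. Each CR level of Sqstm1 lay below each AD level, with a limma mean of -0.43 ± 0.11 (SE; adjusted p = 0.212). Among 21 AMPK and mTOR genes 1 was higher and 3 lower in all regions, among 25 autophagy genes 5 and 4, among 13 insulin and IGF genes 2 and 2, and among 9 sirtuin and NAD genes 1 and 1. Rptor, the mTORC1 scaffold, was 1.63 higher in amygdala and 0.14 and 0.36 lower elsewhere, and Prkaa2, a catalytic AMPK subunit, was 1.29 lower in amygdala and 0.04 and 0.08 higher elsewhere. Of 9 thyroid hormone genes 2 were lower and 0 higher in all regions. Crym, a thyroid hormone binding protein, was 0.42, 0.29 and 0.30 lower. Its slide-fixed mean difference was 0.15 (from -0.33), against -0.22 for Sesn1 (from -0.49), -1.25 for Eif4ebp2 (from -0.60) and -0.29 for Sqstm1 (from -0.43).

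Receptors for transmitters held subunits of opposite sign. Gabra2 read 1.08, 0.28 and 0.59 on AD and 0.48, -0.34 and 0.09 on CR arrays of amygdala, hypothalamus and prefrontal cortex, with a limma mean of -0.57 ± 0.11 (SE; adjusted p = 0.180), and Gabra4 was 0.78, 0.43 and 0.35 lower. These GABA-A alpha subunits were lower everywhere, whereas Gabra3 (0.18, 0.36 and 0.29) and the GABA-making enzyme Gad1 (0.29, 0.49 and 0.54) were higher everywhere. Of 18 GABA genes 6 (33.3%) were higher and 6 (33.3%) lower in all regions, against 18.8% and 18.6% of all genes. The further probes of Gad1 and Gabra3 shared the direction. Slide-fixed mean differences were -0.13 for Gabra4 (from -0.52), -0.83 for Gabra2 (from -0.57), 0.22 for Gabra3 (from 0.27) and 0.70 for Gad1 (from 0.44). Oprk1, the kappa opioid receptor, read -0.71, 0.11 and -2.76 on AD and -1.30, -0.37 and -3.30 on CR arrays, with a limma mean of -0.54 ± 0.11 (SE; adjusted p = 0.197). Of 19 glutamate genes 2 were higher and 2 lower, of 7 dopamine genes 1 and 2, and of 4 serotonin receptors 1 and 0.

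**Figure D4:**
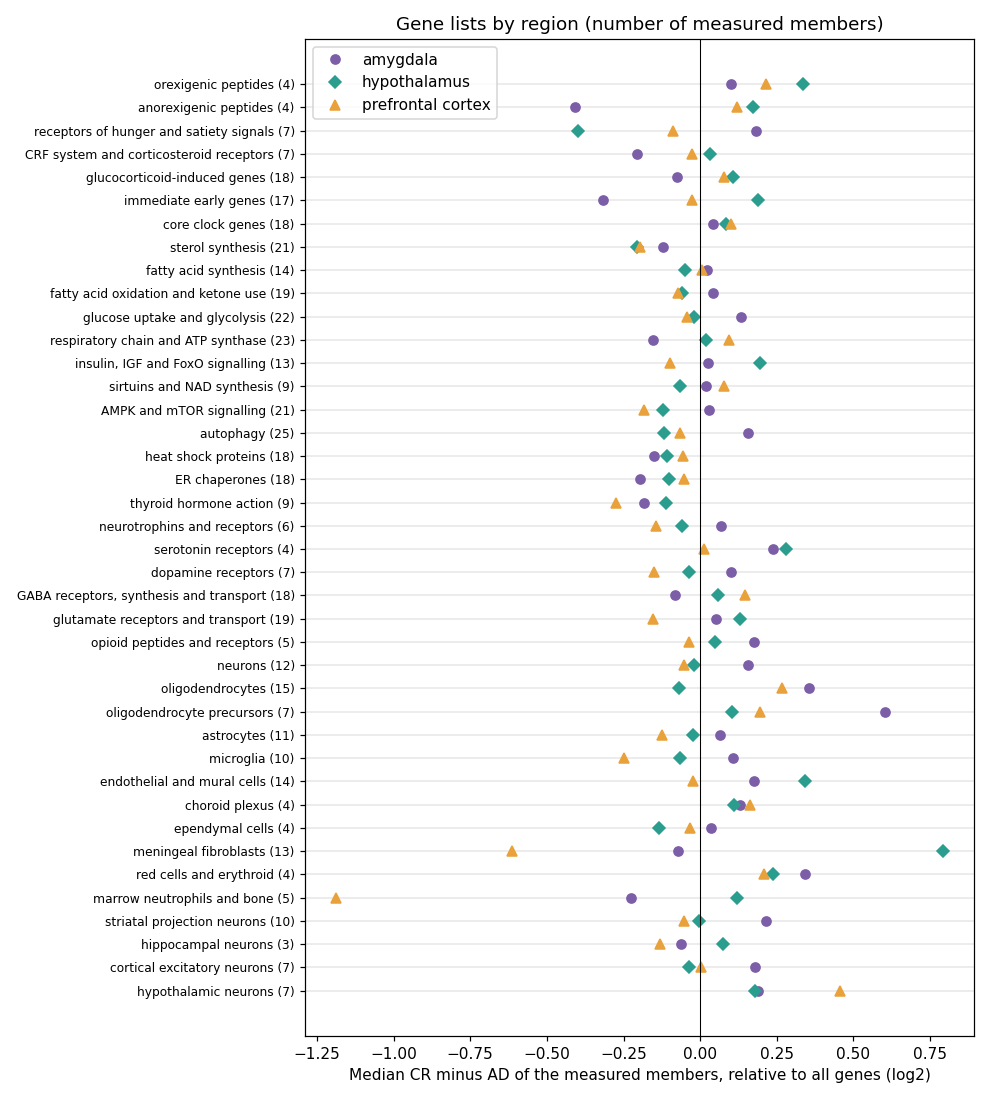
Median difference between the CR and the AD array (log2, relative to the median of all genes in the region) of the measured members of each gene list, by region, with no error bar because there is 1 pair of arrays per region. ER chaperone and sterol synthesis medians are below 0 in all regions, and the meningeal fibroblast median is 0.79 in hypothalamus and -0.61 in prefrontal cortex.

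Markers of other cell types and of neighbouring regions were read beside these results. The 13 meningeal fibroblast genes read higher under CR in hypothalamus and lower in prefrontal cortex, without exception, with a summed signal of 41.2 on the AD and 92.9 on the CR hypothalamus array and 150 and 110 in prefrontal cortex. The endothelial and mural list had medians of 0.17, 0.34 and -0.02, its Abcb1a, a drug exporter of the blood-brain barrier, being 1.01, 0.86 and 0.13 higher. Microglial medians were 0.11, -0.06 and -0.25 and astrocyte medians 0.07, -0.02 and -0.12, S100b being 0.68, 0.33 and 0.31 lower. Neurod2 was 0.99, 0.53 and 0.46 lower, and the striatal gene Pde10a, a phosphodiesterase, 0.38, 0.81 and 0.58 higher. Their lists did not move with these genes: cortical excitatory medians were 0.18, -0.04 and 0.00, with 2 of 7 members higher and 1 lower in all regions, and striatal medians 0.21, -0.00 and -0.05, with 2 of 10 higher and 1 lower. The summed cortical excitatory signal was 41.9, 11.4 and 94.2 on the AD and 39.9, 14.4 and 98.7 on the CR arrays, and the striatal one 96.0, 59.5 and 29.9 on AD and 99.4, 58.5 and 29.3 on CR arrays. Fitted with slide, mean differences were 0.01 for S100b (from -0.44), 0.28 for Abcb1a (from 0.66), -0.47 for Neurod2 (from -0.66) and 0.90 for Pde10a (from 0.59). The part of dissection in the shared genes was not tested.

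The larger agreement of hypothalamus and prefrontal cortex did not extend to the amygdala. Of the 372 genes higher in both, 212 (57.0%) were higher in amygdala relative to all genes (median 0.04). Of the 330 lower in both, 123 (37.3%) were lower in amygdala and 207 (62.7%) higher (median 0.16). On that scale all genes divide equally into higher and lower by construction. Both sets thus held more genes higher than lower in amygdala. Sacm1l, a phosphoinositide phosphatase, read 0.60 and 0.23 on AD and 1.97 and 1.63 on CR arrays of hypothalamus and prefrontal cortex, against 1.18 and 1.07 in amygdala. Cdk5r2, the p39 activator of Cdk5, read 0.50 and 1.04 on AD and -0.97 and -0.27 on CR arrays, against 0.41 and 0.05 in amygdala. In both cases the amygdala pair differed far less. Srsf6, a splicing factor, was 1.01 and 1.03 higher and 0.00 different in amygdala, and Ptms, parathymosin, was 1.31 and 1.25 lower and 0.29 higher. These 4 genes were named after their values were seen.

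Genes that differed by at least 2-fold between the diets in a region numbered 399 of 12243 in amygdala (3.26%; 2.23% higher and 1.03% lower), 159 of 11897 in hypothalamus (1.34%; 0.647% and 0.689%) and 133 of 11788 in prefrontal cortex (1.13%; 0.433% and 0.696%). Among those well above background on all 6 arrays, 2 of 235 higher and 7 of 83 lower in amygdala were at least 0.5 log2 the same way in both other regions. In hypothalamus these counts were 5 of 70 and 5 of 70, and in prefrontal cortex 4 of 42 and 5 of 68. At least 1 other region shared the direction at 0.5 log2 for 10 of the 235 and 23 of the 83 amygdala genes, for 40 of 70 higher and 49 of 70 lower hypothalamus genes, and for 21 of 42 and 43 of 68 prefrontal cortex genes. Genes counted for both other regions are also counted for at least 1, so these counts are nested. Over all 11422 genes, 3.26% were at least 0.5 log2 higher in both regions other than the amygdala and 2.89% lower. These shares were 0.333% and 0.7% for both regions other than the hypothalamus. For both regions other than the prefrontal cortex they were 0.587% and 0.893%. No share over all genes was taken for at least 1 other region. The hypothalamus and prefrontal cortex pairs share their slides. Of the 235 genes higher in amygdala 49 were at least 0.5 log2 lower in hypothalamus or prefrontal cortex. Acss3, a mitochondrial propionyl-CoA synthetase, was among the largest in hypothalamus, at -4.58 on AD and -2.01 on CR. It was not well above background on the AD arrays of amygdala and prefrontal cortex, which kept it out of the set of 61; against the lowest signal well above background there, its CR signal was at least 1.46-fold higher in amygdala and at least 8.27-fold higher in prefrontal cortex.

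At the low end of the scale, 9 of the 16355 genes represented were well above background on all 3 CR arrays and on no AD array, and 0 genes the reverse. Fold bounds set the CR mean against the lowest signal well above background on each AD array, or the gene's own AD signal where that was higher. Syt2, a fast calcium sensor of synaptic vesicles, was at least 1.68-fold higher, Clec14a, an endothelial lectin, at least 1.64-fold, Trim12c at least 1.31-fold, Nol10 at least 1.53-fold, Hs3st3a1 at least 1.23-fold and Oasl1, an interferon-induced gene, at least 1.25-fold. Their adjusted p-values in limma were 0.169 to 0.566. The lowest signals well above background differed between arrays, from 18.2 to 21.8 on the AD and from 16.2 to 31.5 on the CR arrays. Every CR array was also brighter than every AD array. The 75th percentile of the signal in amygdala, hypothalamus and prefrontal cortex was 852, 711 and 722 on AD and 1124, 1063 and 962 on CR arrays. The part of either in these counts was not tested.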

How the data were processed

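Each array (Agilent whole mouse genome, 1 colour) gave scanner output deposited by the authors. Its processed signal is an intensity, background-subtracted by Agilent Feature Extraction 9.5.1.1 per the file headers, and its flags for background and outliers are of the unit other. A deposited table of the authors holds the ratio of each CR and RFR array to the region's AD array and served as an alternative; the scanner values gave back its entries within 0.01 log2 for 99.2% of values after a constant shift per array. From the intensities, log2 values were taken relative to the 75th percentile of each array, with outlier spots removed and spots of a probe averaged. Of 41174 probes 22944 had a gene symbol, for 16355 genes, and each gene was represented by its brightest probe on average.

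limma 3.58.1 (R 4.3.3) fitted region plus diet over 9 arrays with 4 residual degrees of freedom, for genes that passed the background flag on 3 or more arrays; p-values were adjusted by Benjamini-Hochberg. The fit was tested on simulated data. The number of arrays limits precision. The gene lists and members were chosen with earlier results of these data known. Genes were named by rule: the 12 per direction with the largest smallest difference over regions, the 6 largest of each list, the 5 per region and direction, and up to 6 measured in 1 diet only. Others belong to small counts, printed promoters or the edge of the threshold, or are said to be named after their values were seen. Alternatives were normexp with offset 50, quantile scaling, the authors' table, other filters, probe means, variance models, slide, and leaving out a region. Sequences are from RefSeq (GRCm38.p6). Some members of the lists count in the totals but are not reported here by name. Aligned positions of the probes were not used here.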

Additional observations from a re-analysis of the deposited data

Results flagged for a closer look

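Among genes well above background on all 6 arrays, 13 were at least 2-fold higher on the CR array in 1 region and at least 2-fold lower in another; with 1 array per diet and region the difference between regions was not tested. In 9 of them the amygdala was the region with the higher value. Actb, cytoplasmic beta-actin, differed by 1.80 in amygdala and -1.19 in hypothalamus, Bcl9l, a Wnt coactivator, by 1.14 and -1.17, Lars2, the mitochondrial leucyl-tRNA synthetase, by 1.31 and -1.22, Pdcd6ip (ALIX) by 1.48 and -1.10, and Ppp1r13l, a p53 inhibitor, by 1.25 and -1.25 in those regions. Against prefrontal cortex, Adgrg3 differed by 1.73 in amygdala and -1.21, Gpc6, a glypican, by 1.58 and -1.02, Grin2b, the NMDA receptor subunit, by 1.04 and -1.32, and Iffo2 by 1.56 and -1.23. The Actb probe read only -0.85 (AD) and 0.96 (CR) in amygdala and 0.28 and -0.90 in hypothalamus. Lars2 read 9.43 on the AD hypothalamus array, the highest level of the 11422 genes there. Whether these 2 probes read their named genes alone was not tested.

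Slc4a7, a sodium bicarbonate cotransporter, was the widest, at 1.95 in hypothalamus and -3.95 in amygdala. Dennd5b was 1.35 in prefrontal cortex and -1.41 in hypothalamus, Rims3, a presynaptic active zone protein, 2.08 and -1.11, and Tex19.2 2.61 and -1.11. The meningeal fibroblast genes had a list median of 0.79 in hypothalamus and -0.61 in prefrontal cortex, with every member on the stated side in each; the difference between the regions was not tested.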

How the results depend on the processing

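The 0 genes called by limma for CR minus AD became 5 when slide entered as a fixed term, 3 in the authors' table, and 1 to 1218 when a region was left out (1218 without amygdala). For CR minus RFR the 2 calls became 41 with normexp and with trended and robust variances, 22 in the authors' table, 24 when every array had to pass the background flag, 1 with no filter, 0 with slide fixed, and 1 to 2 without a region. The 28 shared higher genes became 9 with normexp and 38 to 372 without a region, and the 33 lower ones 11 in the authors' table and 80 to 330. Genes at least 2-fold different became 142, 71 and 56 with normexp in amygdala, hypothalamus and prefrontal cortex (from 399, 159 and 133), and 830, 450 and 412 when 1 array well above background was enough. The share higher among the 2-fold genes was 68.4%, 48.4% and 38.3%, and became 54.9%, 35.2% and 25% with normexp and 88.3%, 76.3% and 59.0% in the table. The mean of all Fam98b probes was 0.0196, the opposite direction (limma adjusted p = 0.973). Of 191 values of the 24 named genes, 167 kept direction and side of the threshold and 23 passed it, most without amygdala, with adjusted p from 0.00795 to 0.973. Of the list medians 264 moved by less than the spread between regions and 16 by more. The causes were not tested. Genes not well above background on an array have only a bound there. Region pairs the arrays of the diets and is a term in every limma fit; the labels carry no replicate numbers that could pair them further.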
